A study of Homo sapiens with 15 samples.

Results

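The 19p13 band is the outer part of the short arm of human chromosome 19, taken here as bases 1 to 20000000 of chromosome 19 in the genome build hg19. Its members were all peaks of 4 deposited lists whose centre lay in that stretch, 15642 of 647617 peaks in all (2.42%). H3K4ox replicate 1 gave 5618 of them, H3K4ox replicate 2 gave 5695, H2A.Z gave 1232 and RUVBL2 gave 3097. The peaks came from chromatin immunoprecipitation with sequencing (ChIP-seq) in MDA-MB-231, a widely used cell line derived from a triple-negative breast tumour. The 4 libraries carry no knockdown label, and each had its own list: 2 made with a laboratory-made antibody to H3K4ox, and 1 each made with commercial antibodies to H2A.Z and RUVBL2. The other 11 of the 15 samples (1 input, 8 RNA-seq libraries of cells with a control shRNA, shLOXL2 or shRUVBL2, and 2 ATAC-seq libraries with a control shRNA or shRUVBL2) were not analysed here. The lists hold peaks and no reads, so the depth of each library, and of each segment of the band, was unknown. H2A.Z and RUVBL2 had 1 library each, and the labels do not say whether both H3K4ox libraries were grown apart, so the spread between them can be technical, and no test over samples was possible.

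H3K4ox is lysine 4 of histone H3 after oxidation by the lysyl oxidase LOXL2, a form tied in these cells to compact chromatin. H2A.Z is a histone variant that replaces H2A in single nucleosomes, often those beside gene starts and at enhancers. RUVBL2 is a ring-shaped ATPase that works together with its partner RUVBL1 in the INO80, SRCAP and TIP60 complexes, which put H2A.Z into nucleosomes or take it out. Chromosome 19 is known for its many genes, and its short arm carries housekeeping, signalling and chromatin genes packed close together. No gene annotation of hg19 was used here, so the label of a gene-dense band could be checked for the whole chromosome only. RefSeq places 1451 of 20037 protein-coding genes on chromosome 19 (7.24%), which makes up 1.96% of the length spanned by the peaks. Positions, not genes, therefore name the sites below, and no sequences are shown.

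The band was dense in peaks of each antibody. Over its 20 windows of 1 Mb, H3K4ox replicate 1 had a median of 309.0 peaks (lowest 118, highest 365), against a median of 65.0 in the 2897 other windows of the genome that held a peak of any list. H3K4ox replicate 2 had a median of 324.0 (128 to 380), against 64.0 elsewhere. H2A.Z had a median of 61.5 (9 to 115), against 10.0 elsewhere. RUVBL2 had a median of 184.0 (16 to 257), against 30 elsewhere. Of the 20 band windows, 17 in each H3K4ox list, 16 for H2A.Z and 14 for RUVBL2 lay above the value that 90% of the other windows did not exceed. The rest of chromosome 19 lay between the band and the genome, with medians over 38 windows of 221.0 and 213.5 for the H3K4ox lists, 22.5 for H2A.Z and 75.5 for RUVBL2. Peaks also stood closer together. The median distance between neighbouring centres was 2546 and 2467 bp for H3K4ox replicates 1 and 2, against 5156 and 5215 bp in the rest of the genome. It was 6177 bp for H2A.Z, against 27828 bp, and 3277 bp for RUVBL2, against 11313 bp.

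The band was not even, however, and its first 6 Mb differed from the remainder. For RUVBL2 the windows of 1 Mb from 0 to 6 Mb held 26, 27, 43, 33, 38 and 16 peaks. The next windows, at 6 and 7 Mb, held 152 and 183, and the 11 windows from 8 to 19 Mb held between 178 and 257. The last window, from 19 to 20 Mb, held 135. RUVBL2 windows before 6 Mb thus lay around the median of the other windows, with ranks between 765 and 2420 of 2917 windows, while those from 6 to 19 Mb ranked between 1 and 29. H2A.Z had the same shape, with 17, 18, 37, 13, 29 and 9 peaks in the first 6 windows, 79 and 56 in the next pair, 47 to 115 from 8 to 19 Mb and 42 in the last. H3K4ox differed less. Its lists averaged 123.0, 151.0, 196.0, 207.5, 234.5 and 159.0 peaks in the first 6 windows, 328.5 and 332.5 in the next pair, 296.5 to 372.5 from 8 to 19 Mb and 279.5 in the last. In replicate 1 the first 6 windows ranked between 98 and 662 of 2917, and in replicate 2 between 127 and 563, and each held more peaks than the median of the other windows.

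The densest windows of the band were also among the densest of the genome. H3K4ox was highest at 17 to 18 Mb (mean 372.5 peaks), 10 to 11 Mb (368.0) and 11 to 12 Mb (353.0). H2A.Z was highest at 14 to 15 Mb (115 peaks, the highest window of its list) and 13 to 14 Mb (113), and RUVBL2 at 14 to 15 Mb (257, the highest of its list), 17 to 18 Mb (253) and 10 to 11 Mb (247). The sparsest were 0 to 1 Mb for H3K4ox and 5 to 6 Mb for H2A.Z and RUVBL2. Within the dense part H2A.Z was the most uneven, with only 47 peaks at 9 to 10 Mb and 52 at 15 to 16 Mb, where RUVBL2 held 178 and 185 and H3K4ox averaged 296.5 and 314.5.

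From 8 to 19 Mb against 0 to 8 Mb, each antibody had more peaks per Mb, and RUVBL2 differed most. RUVBL2 had 222.2 peaks per Mb (2444 peaks) in the inner zone from 8 to 19 Mb and 64.8 (518 peaks) in the outer zone from 0 to 8 Mb, a 3.43-fold difference (95% exact binomial interval 3.12 to 3.78). H2A.Z had 84.7 (932 peaks) in the inner zone and 32.2 (258 peaks) in the outer zone, a 2.63-fold difference (2.29 to 3.03). H3K4ox had 331.4 ± 5.7 in the inner zone and 216.5 ± 0.9 in the outer zone (SD, n = 2), a 1.53-fold difference (± 0.03, SD, n = 2). The replicates gave 1.51 and 1.55. Over all peaks, the distance of both other antibodies from H3K4ox was thus wider than the spread between its libraries. The binomial intervals describe counting error alone and take each peak as independent, which clustered peaks are not. Among peaks in the top 10% of their list by score, H3K4ox no longer differed less than H2A.Z. The H3K4ox replicates had 1156 and 1154 such peaks in the inner zone and 222 and 216 in the outer zone. H2A.Z had 195 and 39, and RUVBL2 308 and 16. The share of bases under a peak differed more than the number of peaks. It was 51.96% ± 1.05 in the inner zone and 24.05% ± 1.06 in the outer zone for H3K4ox (SD, n = 2), 10.2% and 2.97% for H2A.Z, and 29.8% and 6.02% for RUVBL2.

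Counting in steps of 100 kb placed the change at 6.3 Mb, inside the outer zone. Over every position with 10 windows on either side, the largest difference between the mean of the following and of the preceding windows fell at 6.3 Mb for both H3K4ox lists and RUVBL2, and at 6.2 Mb for H2A.Z. At 6.3 Mb the 10 windows past the step held 21.3 RUVBL2 peaks on average (13 to 28) and the 10 before it 2.00 (0 to 7), a 10.7-fold difference without overlap. H2A.Z had 8.40 past the step (2 to 14) and 1.80 before it (0 to 6), or 4.67-fold. H3K4ox replicate 1 had 39.5 (32 to 45) and 17.9 (6 to 29), or 2.21-fold, and replicate 2 had 40.9 (33 to 50) and 17.4 (4 to 28), or 2.35-fold. In the windows next to the step RUVBL2 had 21 peaks past it and 4 before it, and H2A.Z had 10 and 6. This edge was chosen after the counts were seen, so the contrast across it is a description. The lists hold no reads, so copy number and read depth on either side of the step could not be examined. What underlies the step was not tested.

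**Figure D1:**
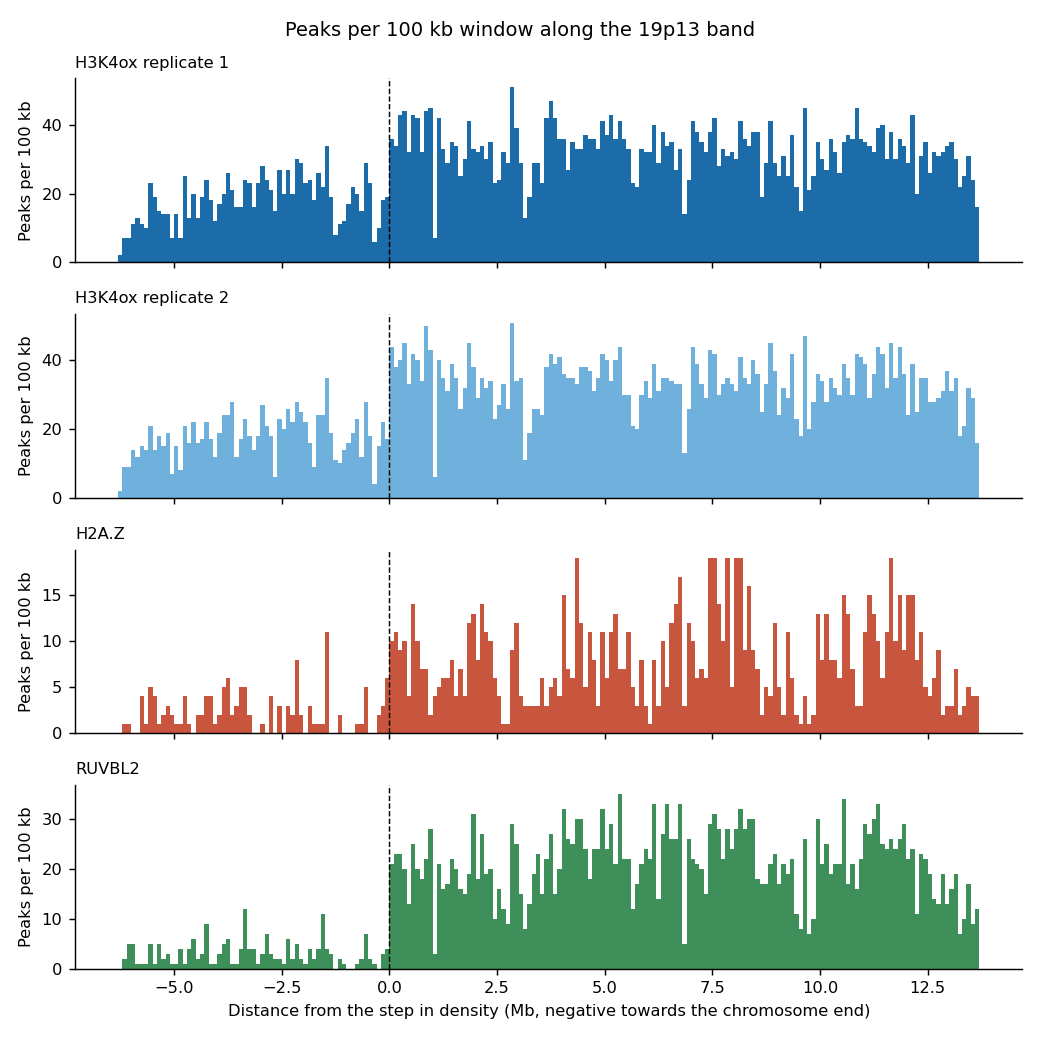
Peaks per 100 kb window (y axis) in each of the 4 lists against the distance of the window from the step in density (x axis, Mb; dashed line at the step). RUVBL2 averages 21.3 peaks in the 10 windows past the step and 2.00 in the 10 before it, while H3K4ox is already dense before it.

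With the edge at 6.3 Mb, RUVBL2 had 218.3 peaks per Mb past the step, up to 19 Mb, and 30.2 before it, or 7.24-fold (6.25 to 8.43). H2A.Z had 83.1 and 21.3, or 3.91-fold (3.26 to 4.72), and H3K4ox 335.1 ± 6.1 and 178.0 ± 3.5 (SD, n = 2), or 1.88-fold ± 0.07. Among peaks in the top 10% of their list by score, H3K4ox differed more than H2A.Z across the step. The H3K4ox replicates had 1308 and 1314 such peaks past it and 70 and 56 before it, and H2A.Z had 212 and 22. Every 100 kb window of the band held H3K4ox in both lists. H2A.Z was missing from 17 windows and RUVBL2 from 5, each of which lay before the step. The medians per 100 kb past and before the step were 22 and 2.00 for RUVBL2, 8.00 and 2.00 for H2A.Z, 34.0 and 19 for H3K4ox replicate 1, and 35.0 and 18.0 for replicate 2. The longest stretch with no RUVBL2 peak ran from 5245285 to 5519770 (274.5 kb), inside the span of the longest one without H2A.Z, from 5177059 to 5530939 (353.9 kb). The longest stretch without H3K4ox was 78.6 kb in replicate 1, from 5045996 to 5124562, and 92.0 kb in replicate 2, from 7303884 to 7395863.

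Relative to H3K4ox, RUVBL2 was therefore sparse before the step and frequent past it. RUVBL2 had 65.1 peaks per 100 H3K4ox peaks past the step and 16.9 before it, against 43.6 in the rest of the genome. H2A.Z had 24.8 past the step and 11.9 before it, against 15.3 in the rest of the genome. As a description, windows of the band were also set beside windows of 1 Mb elsewhere with like numbers of H3K4ox peaks. The 6 windows from 0 to 6 Mb held 10.1 to 21.9 RUVBL2 peaks per 100 H3K4ox peaks (median 17.0), against a median of 37.4 (11 to 88.0) in 492 other windows with the same range of H3K4ox, 123.0 to 234.5 peaks. Of those 492 windows, 49 (9.96%) had a value at or below the highest of the 6. For H2A.Z the 6 windows held 5.66 to 18.9 (median 12.1), against a median of 10.97 (1.41 to 58.2) in the 492, and so lay on both sides of that median. The 12 windows from 7 to 19 Mb held 55.0 to 76.3 RUVBL2 peaks per 100 H3K4ox peaks (median 66.7), against a median of 39.9 (21.9 to 70.4) in 26 windows of like H3K4ox elsewhere, of which 6 reached the lowest value of the 12. For H2A.Z they held 15.8 to 34.4 (median 25.2), against a median of 14.4 (5.23 to 25.8), and 9 of the 26 reached the lowest value of the 12. The window from 6 to 7 Mb, which holds the step, was in neither group. It held 46.3 RUVBL2 and 24.05 H2A.Z peaks per 100 H3K4ox peaks. The windows of the band were grouped after their counts were seen, those of RUVBL2 among them. Their distance from other windows was thus partly fixed by that choice and gives it no support. Windows of 1 list are not replicates, and these differences were not tested.

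Counts of the antibodies followed each other along the band as a whole and less so within its parts. Over the 20 windows of 1 Mb, Spearman's rho was 0.92 for H2A.Z with RUVBL2, 0.92 and 0.88 for RUVBL2 with H3K4ox replicates 1 and 2, 0.85 and 0.83 for H2A.Z with H3K4ox, and 0.96 between the H3K4ox replicates. In the 127 windows of 100 kb past the step, up to 19 Mb, the values were 0.62 for H2A.Z with RUVBL2, 0.48 and 0.53 for RUVBL2 with H3K4ox, 0.28 and 0.32 for H2A.Z with H3K4ox, and 0.86 between the replicates. In the 63 windows before the step they were 0.36, 0.42 and 0.44, 0.37 and 0.40, and 0.86 in the same order. Past the step H2A.Z thus followed RUVBL2 more closely than H3K4ox. These are descriptions over windows that share 1 library per list.

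Scores, which the authors' peak caller gave each peak and which are read here only within a list, set the same parts of the band apart. Of the peaks in the band, 24.8% ± 0.4 of H3K4ox peaks (SD, n = 2) stood in the top 10% of their list, 19.9% of H2A.Z peaks (245) and 10.6% of RUVBL2 peaks (329), against 9.66% ± 0.001, 9.68% and 9.98% in the rest of the genome. In the inner zone the median score was 161.1 ± 7.5 for H3K4ox, against 97.0 ± 2.3 in the outer zone (SD, n = 2), and 96.1 for RUVBL2, against 68.5. For H2A.Z the medians were 78.4 in the inner zone and 77.3 in the outer zone, a small difference beside the range of the scores. Past the step 323 of 2772 RUVBL2 peaks (11.7%) were in the top 10% of the list, and before it 1 of 190 (0.53%), while 76.3% of those 190 were in the lower 50%. For H3K4ox, 30.8% ± 0.5 past the step and 5.61% ± 0.77 before it were in the top 10% (SD, n = 2), and for H2A.Z 20.1% and 16.4%. Few H2A.Z peaks lay before the step, yet more than 10% of them stood in the top 10% of their list.

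**Figure D2:**
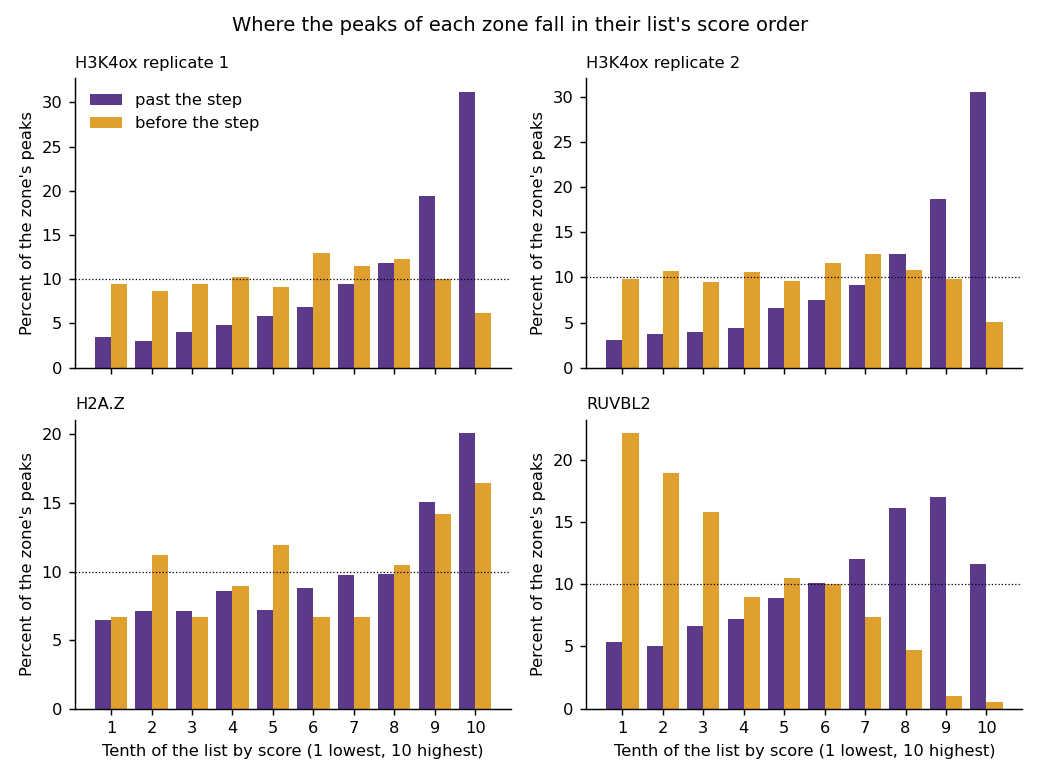
Percent of the peaks past the step (6.3 to 19 Mb) and before it (0 to 6.3 Mb) that fall in each of 10 score classes of equal size in their own list (x axis, 10 highest). The dotted line marks an even spread at 10%; RUVBL2 has 11.7% past the step and 0.53% before it in the highest class.

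Peaks were also wider in the inner zone. Median widths were 1239 ± 35 bp in the inner zone and 916.5 ± 34.6 bp in the outer zone for H3K4ox (SD, n = 2), 1000 and 831.5 bp for H2A.Z, and 1105 and 806.5 bp for RUVBL2. In the rest of the genome they were 825.5 ± 16.3, 804 and 866 bp. Peaks of 4 kb or more numbered 172 of 5618 and 125 of 5695 in the H3K4ox lists, 29 of 3097 for RUVBL2 and 5 of 1232 for H2A.Z. In the rest of the genome they numbered 3384 of 246841 and 2543 of 241272, 1108 of 106510 and 69 of 37352. For RUVBL2 the share in the band was thus close to that elsewhere. None of these peaks lay before the step, where only 190 RUVBL2 and 134 H2A.Z peaks lay, so few would be expected there for those lists.

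Overlap between lists was high in the band, and so was the overlap that its density alone would give. A peak was counted as overlapping when it shared at least 1 bp with the other list. The expected share is that of the same peaks, with their widths, centred at every base from the first peak of the band to its end. Of RUVBL2 peaks, 2900 of 3097 (93.6%, 95% Wilson interval 92.7 to 94.45) overlapped H3K4ox replicate 1 and 2873 (92.8%) overlapped replicate 2, against 73.2% and 71.8% over the whole list. The mean share was 93.2% ± 0.6, against 61.1% ± 0.9 expected (SD, n = 2), a 1.53-fold difference. Of H2A.Z peaks, 1106 of 1232 (89.8%) overlapped replicate 1 and 1105 (89.7%) replicate 2, against 55.2% and 53.6% over the whole list. The mean was 89.7% ± 0.1, against 59.9% ± 0.9 expected (SD, n = 2), or 1.499-fold. Of H2A.Z peaks, 848 (68.8%, 66.2 to 71.4) overlapped RUVBL2, against 33.4% over the whole list and 32.95% expected in the band, or 2.09-fold. Of RUVBL2 peaks, 826 (26.7%) overlapped H2A.Z, against 11.8% over the whole list and 13.6% expected. H3K4ox replicates met each other at 85.8% and 86.7% of their peaks, against 67.8% and 70.2% over the whole lists and 61.9% and 62.5% expected.

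Read from the side of H3K4ox, 48.3% of the replicate 1 peaks and 48.4% of the replicate 2 peaks in the band met RUVBL2, against 30.7% and 31.3% over the whole lists and 35.0% ± 0.4 expected in the band (SD, n = 2). H2A.Z was met by 18.8% and 19.02%, against 8.47% and 8.46% over the whole lists and 14.2% ± 0.2 expected. The excess over expectation was narrower from this side, 1.38-fold for RUVBL2 and 1.33-fold for H2A.Z.

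The ratios were smaller against a local expectation. When the peaks were centred only within their own window of 1 Mb, the ratio was 1.32-fold for RUVBL2 with H3K4ox, 1.30-fold for H2A.Z with H3K4ox and 1.61-fold for H2A.Z with RUVBL2. At that scale 42.9% of H2A.Z peaks were expected to meet RUVBL2. With intervals of 200 bp at the peak centres, the ratios were 3.69-fold, 2.78-fold and 4.24-fold in the same order.

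In the inner zone nearly every peak met H3K4ox. The share was 95.5% ± 0.6 of RUVBL2 peaks in the inner zone, against 75.3% ± 0.6 expected, and 84.5% ± 0.4 in the outer zone, against 39.6% ± 1.2 expected (SD, n = 2). For H2A.Z it was 93.4% ± 0.4 in the inner zone, against 74.0% ± 0.6 expected, and 76.7% ± 0.5 in the outer zone, against 39.6% ± 1.2. The ratios, 1.27-fold and 2.13-fold for RUVBL2 and 1.26-fold and 1.94-fold for H2A.Z, cannot be ranked between zones, since with 75.3% expected even complete overlap stays below the outer value. H2A.Z met RUVBL2 at 77.4% of 932 peaks in the inner zone (74.6 to 79.9), against 49.1% expected, and at 40.3% of 258 in the outer zone (34.5 to 46.4), against 11.4%. The distance between observed and expected was 28.2 percentage points in the inner zone and 28.9 in the outer zone. The outer value pools unlike parts, since expected shares there take positions evenly over 0 to 8 Mb although density changes at 6.3 Mb. From 6.3 to 8 Mb, 82 of 124 H2A.Z peaks met RUVBL2 (66.1%), against 35.9% expected, a distance of 30.2 points. Before the step alone only 22 of 134 did (16.4%, 11.1 to 23.6), against 4.76% expected, a distance of 11.65 points. The likeness of the zones is therefore not read as a result.

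**Figure D3:**
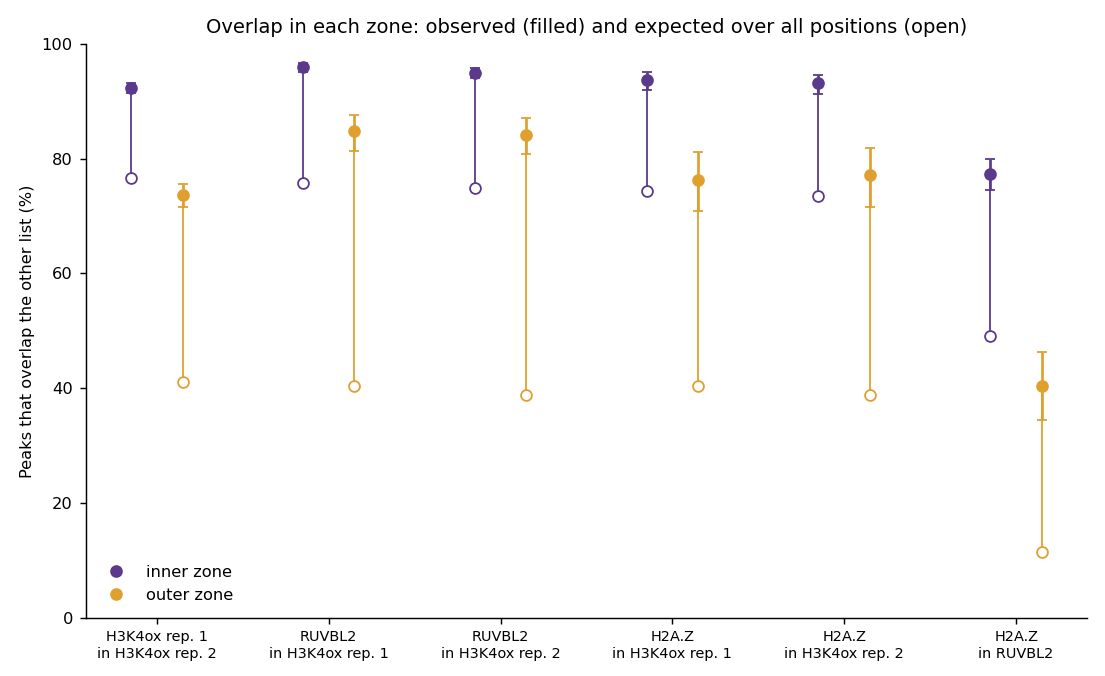
Percent of the peaks of 1 list that overlap another (y axis), for 6 ordered pairs of lists, in the inner zone (8 to 19 Mb) and the outer zone (0 to 8 Mb); filled points are observed with 95% Wilson intervals and open points are expected over all positions of the zone. Observed values lie above expected ones in each pair, and the expected values are higher in the inner zone, from 49.1% to 76.6%.

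H3K4ox peaks were also compared with others of like score. The peaks of each H3K4ox list were divided into 5 classes of equal size by score. The step was placed where peak density changed, so a lower share of peaks meeting RUVBL2 before it was fixed by that choice, and the share expected from the density of each part stands beside each value. In the highest class, 76.7% ± 0.3 of the peaks past the step overlapped RUVBL2, against 57.2% ± 0.5 expected, and 16.15% ± 1.31 of those before it did, against 6.95% ± 0.17 expected (SD, n = 2). These were 1635 of 2125 peaks past the step and 28 of 184 before it in replicate 1, and 1621 of 2118 and 28 of 164 in replicate 2. The observed share was thus 1.34-fold the expected one past the step (± 0.01) and 2.33-fold before it (± 0.24). With 57.2% expected past the step, even complete overlap there stays below 2.33-fold, so these ratios cannot be ranked. In the lowest class the shares were 26.7% ± 0.5 past the step, against 41.95% ± 0.22 expected, and 8.49% ± 1.7 before it, against 4.26% ± 0.03 expected. Past the step the share was 0.64-fold the expected one in the lowest class, 0.73-fold in the next and 0.89-fold in the middle one. Peaks of the same H3K4ox list do not overlap, yet the expected share lets low-scoring peaks lie on bases held by high-scoring ones. Values below expectation in the low classes, for RUVBL2 and for H2A.Z, are therefore not read as a trait of low-scoring peaks. Before the step each of the 5 classes lay above its expected share, between 1.47-fold and 2.94-fold. In the rest of the genome the shares were 68.5% ± 0.7 in the highest class and 13.6% ± 0.5 in the lowest, with no expected share computed there. H2A.Z had the same order past the step, with 32.6% ± 0.1 of the highest class, against 23.4% ± 0.4 expected, and 6.20% ± 0.5 of the lowest, against 15.3% ± 0.1 expected. Before the step its values were 8.86% ± 1.3, against 5.01% ± 0.11 expected, and 5.93% ± 2.2, against 3.19% ± 0.02 expected. Widths were not matched between the parts, and in the highest class of replicate 1 their medians were 1834 bp past the step and 1585 bp before it.

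**Figure D4:**
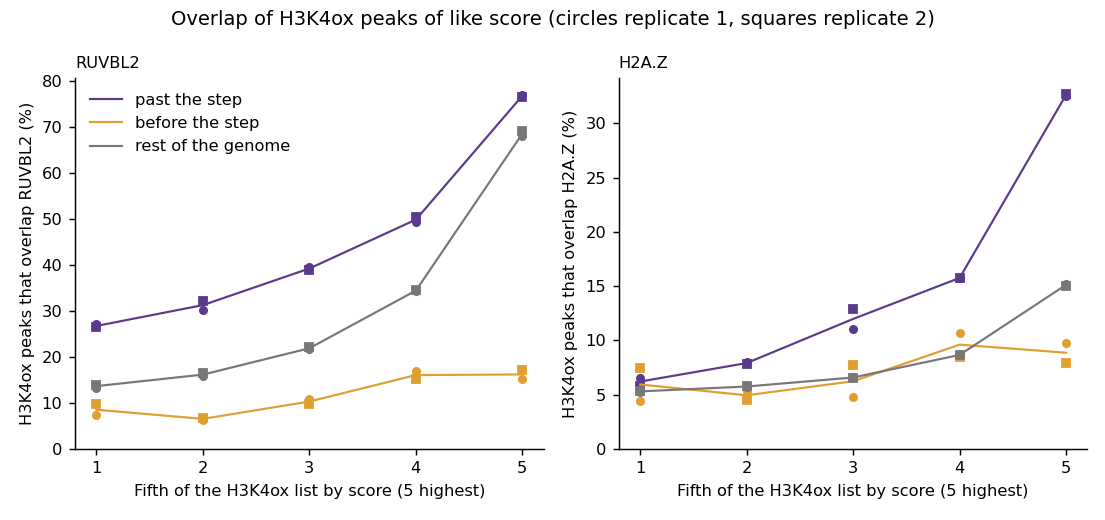
Percent of H3K4ox peaks that overlap RUVBL2 (left) or H2A.Z (right), by score class of the H3K4ox list (x axis, class 5 highest), past the step, before it and in the rest of the genome. Circles are replicate 1, squares replicate 2 and lines their mean. In the highest class RUVBL2 is at 76.7% past the step, 16.15% before it and 68.5% elsewhere. The shares expected from density in that class, 57.2% past the step and 6.95% before it, are not drawn.

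The overlap was sharpest at the peak centres and lay on a high floor. H3K4ox replicate 1 covered 90.7% of RUVBL2 centres, 56.9% of positions 1000 bp away and 52.9% at 20000 bp, with 40.7% of the band covered in all. Replicate 2 covered 89.6% of RUVBL2 centres and 51.1% at 20000 bp. At H2A.Z centres replicate 1 covered 83.6% and 53.4% at 20000 bp. RUVBL2 covered 60.2% of H2A.Z centres, 33.8% at 1000 bp and 28.7% at 20000 bp, with 19.5% of the band covered. Coverage at 50000 bp, 50.9% by H3K4ox around RUVBL2 and 27.2% by RUVBL2 around H2A.Z, was still above the mean of the band. Of the RUVBL2 centres, 2772 of 3097 lay between 6.3 and 19 Mb, where coverage was highest.

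**Figure D5:**
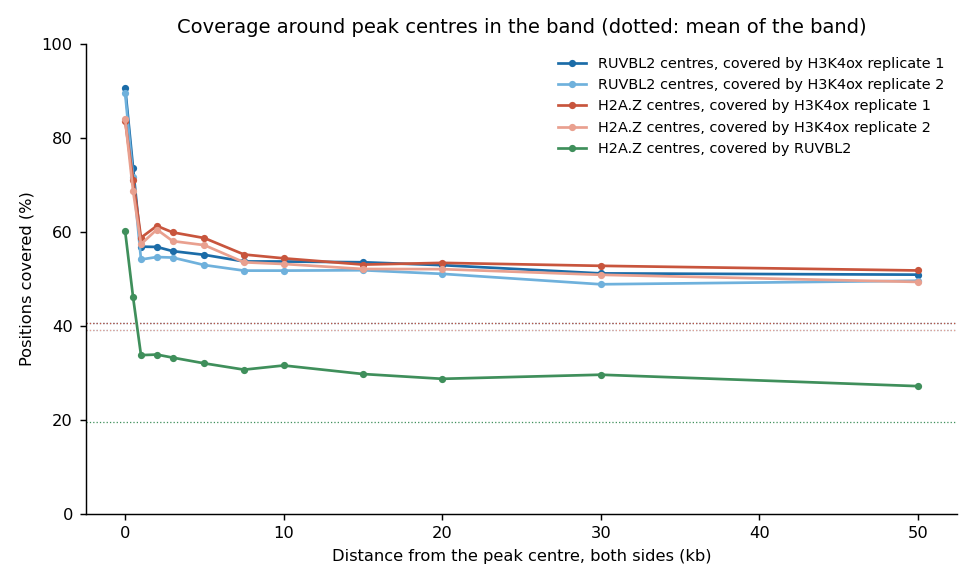
Percent of positions covered by a peak of another list (y axis) against the distance from the centres of RUVBL2 or H2A.Z peaks in the band (x axis, kb, both sides pooled). Dotted lines give the percent of the band covered; coverage drops within 1 kb of the centre and stays above the dotted line up to 50 kb.

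Sites with the 3 antibodies together were counted next. H3K4ox shared regions, merged peaks that hold at least 1 peak of each replicate, numbered 4333 in the band. Of these, 742 (17.1%, 16.0 to 18.3) overlapped both H2A.Z and RUVBL2, against 6.21% over the whole series. The band so held 7.35% of all 10100 such sites. There were 705 among 3430 shared regions past the step (20.6%) and 14 among 704 before it (1.99%), where RUVBL2 was 7.24-fold and H2A.Z 3.91-fold denser past the step. No share expected from density was computed for the 3 antibodies together. For H2A.Z with RUVBL2 alone, the overlap was 1.60-fold the expected share past the step and 3.45-fold before it. These ratios cannot be ranked, since with 47.4% expected past the step even complete overlap there stays below 3.45-fold. RUVBL2 without H2A.Z was found at 41.9% of the shared regions past the step and 12.1% of those before it, against 32.1% in the rest of the genome. H2A.Z without RUVBL2 was found at 4.08% and 6.53%, against 4.10% in the rest of the genome, and neither at 33.5% and 79.4%, against 57.9%. Seen from H2A.Z, 822 of its 1232 peaks in the band (66.7%, 64.0 to 69.3) met both a shared region and RUVBL2, against 25.7% over the whole list. Past the step 74.3% of 1056 H2A.Z peaks were of this class and 5.97% met neither. Before the step 11.2% of 134 were of this class and 49.3% met neither, against 24.4% and 48.4% in the rest of the genome, so the share that met neither was close to that elsewhere.

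Most of the few RUVBL2 peaks before the step met H3K4ox as well. The share was 95.35% ± 0.46 past the step, against 74.6% ± 0.6 expected, and 67.1% ± 2.6 before it, against 29.3% ± 1.3 expected (SD, n = 2). The excess over expectation was 20.6 and 20.8 percentage points past the step in replicates 1 and 2, and 38.8 and 36.9 before it. With 74.6% expected past the step, even complete overlap there would give a smaller excess than that before it. The parts therefore cannot be ranked by this excess. For H2A.Z the share was 93.9% ± 0.3 past the step, against 73.4% ± 0.6 expected, and 57.5% ± 1.1 before it, against 30.7% ± 1.3 expected. Among the 52 RUVBL2 peaks past the step that met neither H3K4ox list the median score was 61.0, against 94.98 for the other peaks there. Before the step the medians were 53.6 for the 29 such peaks and 58.9 for the others, beside a lowest score of 50 in the list.

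The 5 best-scoring peaks of each list in the band all lay past the step, as did most peaks of the band. Between 6.3 and 19 Mb lay 4201 of 5618 and 4310 of 5695 H3K4ox peaks, 1056 of 1232 H2A.Z peaks and 2772 of 3097 RUVBL2 peaks. For H3K4ox the best stood at 13098829 to 13104627 (replicate 1, score 3100, rank 3 in its whole list) and at 13098686 to 13101145 in replicate 2 (score 2694). A neighbour at 13089789 to 13094463 scored 2064 in replicate 1, and its counterpart in replicate 2, at 13089130 to 13094461, scored 2441. The widest of them, at 14365116 to 14375794 (10679 bp, score 2392 in replicate 1), met H2A.Z and RUVBL2. In the same replicate 14759411 to 14761934 (score 2155) and 11319716 to 11322418 (score 2004) met neither. The best peak met both in replicate 1, but in replicate 2 it met RUVBL2 and not H2A.Z. Also in replicate 2, 14759405 to 14761972, 18763866 to 18766033 and 11319587 to 11322464 met neither. In the highest H3K4ox score class past the step, 76.7% of peaks met RUVBL2 and 32.6% met H2A.Z. The 5 best H2A.Z peaks each met both H3K4ox lists and RUVBL2. They were led by 10809042 to 10812463 (score 1374, rank 12 in the list) and 16290625 to 16293961 (score 969.6, rank 20). Of all 1056 H2A.Z peaks past the step, 74.3% met an H3K4ox shared region, defined above by both replicates, and RUVBL2. The 5 best RUVBL2 peaks each met both H3K4ox lists, and 2 of them met H2A.Z. They were led by 12017568 to 12022650 (score 752.1, rank 52), without H2A.Z, and 13901286 to 13905403 (score 640.1, rank 174), with it. The 5 best ranked between 12 and 32 of 38584 peaks for H2A.Z and between 52 and 233 of 109607 for RUVBL2.

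The 5 best sites of the 3 antibodies together, by the mean of their ranks, were 18662874 to 18668595, 13297896 to 13306803, 15316988 to 15323600, 13962651 to 13972347 and 14389488 to 14394825. The first of them had scores of 1521 and 1455 for the H3K4ox replicates, 949.8 for H2A.Z and 400.6 for RUVBL2. The 5 were between 5338 and 9697 bp wide. In steps of 100 kb RUVBL2 was highest at 11.6 to 11.7 Mb (35 peaks). H2A.Z reached its highest count, 19 peaks, in several windows, the first of them at 10.6 to 10.7 Mb, while H3K4ox was highest at 9.1 to 9.2 Mb (51 peaks in each replicate).

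At its inner end the band was less dense, and density was lower again past 20 Mb. The last 100 kb inside held 16 peaks of each H3K4ox list, 4 of H2A.Z and 12 of RUVBL2, and the first 100 kb outside held 12 and 10, 2 and 6. Over 1 Mb the counts were 280 and 279 inside and 120 and 109 outside for H3K4ox, 42 and 20 for H2A.Z, and 135 and 65 for RUVBL2. The last peaks inside and the first outside scored 61.9 and 108.4 in H3K4ox replicate 1, 53.1 and 114.7 in replicate 2, 424.4 and 194.4 in H2A.Z, and 99.6 and 57.4 in RUVBL2.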

How the data were processed

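Chromatin of MDA-MB-231 cells was sonicated and precipitated with antibody, per the labels' protocols, and each of the 4 libraries had its own deposited list, grouped here by antibody. The peak names carry the name of the caller MACS, with no version or settings. Bowtie, TopHat and the build hg19 appear, with no version or role, in the submitters' processing notes. Each peak has a score deposited by the authors, at least 50 in every list and of unstated unit, used here only to rank peaks within a list. The track lines hold the word multilocus, and only those of H3K4ox name an input. Peak start and end positions were deposited by the authors as base pairs and are printed counted from 1.

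Intervals were handled with pandas 2.3.3, numpy 2.4.6 and scipy 1.17.1 under Python 3.11.15, and figures made in matplotlib 3.10.9. A peak belonged to the window of its centre. Expected overlap was computed in full from the uncovered stretches, with nothing drawn at random, and was checked on simulated lists with a known overlap. For coverage of 50% every 50th base was used. Other settings tried were 200 bp centres, the upper 50% by score, expectation within the own 1 Mb window, other zone edges, covered bases and leaving out each H3K4ox list. The depth of the libraries was unknown, so precision rests on peak numbers and the 2 H3K4ox lists.

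The band, its zones and the lists were chosen with earlier results of these data known, and the edge at 6.3 Mb, the split by H3K4ox score and the comparison with windows of like H3K4ox after seeing the counts. Lists of genes were prepared for an annotation of hg19; none was used here, so they were not applied, and sites were named by position: the 3 densest and sparsest 1 Mb windows, the 3 densest 100 kb windows, the longest stretch without a peak and the 5 best peaks per antibody, and 5 sites shared by the antibodies. The text gives part of these.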

Additional observations from a re-analysis of the deposited data

How the results depend on the processing

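Of 37 recomputed values 10 moved by less than the spread of the H3K4ox replicates or the counting interval, 27 moved by more and 0 changed direction. The density ratios of 8 to 19 Mb over 0 to 8 Mb for H3K4ox, H2A.Z and RUVBL2 were 1.53, 2.63 and 3.43. With the edge at 9 Mb they were 1.46, 2.24 and 2.88, and with the edge at 6.3 Mb, chosen after seeing the data, 1.88, 3.91 and 7.24. Covered bases gave 2.16, 3.43 and 4.94. The upper 50% by score gave 1.98, 2.83 and 5.27. The order of H3K4ox below H2A.Z did not hold among peaks in the top 10% of their lists. Leaving out an H3K4ox replicate gave 1.51 to 1.55. The overlap ratios, in the order H3K4ox replicates, RUVBL2 with H3K4ox, H2A.Z with H3K4ox and H2A.Z with RUVBL2, were 1.39, 1.53, 1.499 and 2.09. They were 2.05, 2.201, 2.05 and 3.09 with 50% of the peak covered, 5.09, 3.69, 2.78 and 4.24 with 200 bp centres, 1.57, 1.75, 1.65 and 2.47 in the upper 50% by score, and 1.298, 1.32, 1.304 and 1.61 against the own 1 Mb window. Leaving out an H3K4ox replicate gave 1.519 to 1.535 for RUVBL2 and 1.484 to 1.514 for H2A.Z. Asking for 50% coverage or narrowing peaks to 200 bp lowers the expected share by construction, and centring within the own window raises it here. For the density ratios the cause was not tested. No paired analysis was possible because the lists share replicate numbers across antibodies only as a count within each antibody and none of the results comes from a test over samples. Unknown depth limits every comparison of peak numbers between lists.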
